A study of Drosophila melanogaster with 3 samples.

Results

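Closely spaced Hmr summits are positions of highest ChIP signal that lie within 500 bp of another such position. They were chosen from the optimal list of peaks, in genome build dm6, by 1 rule, namely at least 1 other summit of the list on the same chromosome within 500 bp. The rule selected 1334 of 8131 summits (16.4%, exact 95% interval 15.6% to 17.2%). The other 6797 had no optimal summit that near. The members formed 656 groups, of which 635 held 2 summits, 20 held 3 and 1 held 4, and they gave 678 adjacent pairs. The spacing of the summits is therefore what chose them and is given as a description.

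The data came from 3 biological replicates of a single group, whole Drosophila melanogaster embryos of both sexes aged 0 to 24 h. All flies carried a transgene of Hybrid male rescue (Hmr) fused at its C terminus to green fluorescent protein, and chromatin was pulled down with an antibody against that tag in chromatin immunoprecipitation with sequencing (ChIP-seq). The labels name neither the promoter of the transgene nor the state of the native Hmr gene, and whole embryos mix all cell types, so weak binding in many cells and strong binding in few cannot be told apart. No second condition was measured, and the number of reads behind each list is unknown.

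Hmr is a DNA-binding protein with MADF domains, known for the death of hybrid males between Drosophila melanogaster and its sister species. It works with Lhr and the heterochromatin protein HP1a, and it is known at heterochromatin, at centromeres and at sites shared with insulator proteins along the chromosome arms. A ChIP-seq summit marks the likeliest point of contact in a stretch of enriched DNA, and neighbouring summits can stand for separate contacts or for a single broad stretch that a peak caller has divided.

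The sequence between the summits is shown for 6 of the named groups of 2, taken from those outside untranslated regions whose summits were both found in every replicate list. Each run is the plus strand of dm6 from 25 bp before the first summit to 25 bp after the last, so the first summit stands at base 26. Capitals mark the 51 bases centred on the midpoint between the summits, the stretch in which GC content is compared further on.
by: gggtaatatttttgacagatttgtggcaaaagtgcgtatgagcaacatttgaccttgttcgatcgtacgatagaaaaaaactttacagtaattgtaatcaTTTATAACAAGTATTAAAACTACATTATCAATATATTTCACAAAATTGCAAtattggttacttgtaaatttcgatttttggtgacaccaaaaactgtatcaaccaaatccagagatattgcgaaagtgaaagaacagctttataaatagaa
spi: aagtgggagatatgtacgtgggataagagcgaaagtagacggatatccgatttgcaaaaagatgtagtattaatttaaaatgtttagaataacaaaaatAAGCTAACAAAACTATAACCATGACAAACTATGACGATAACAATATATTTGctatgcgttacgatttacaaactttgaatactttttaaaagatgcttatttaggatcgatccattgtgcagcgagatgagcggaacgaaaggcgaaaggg
frtz: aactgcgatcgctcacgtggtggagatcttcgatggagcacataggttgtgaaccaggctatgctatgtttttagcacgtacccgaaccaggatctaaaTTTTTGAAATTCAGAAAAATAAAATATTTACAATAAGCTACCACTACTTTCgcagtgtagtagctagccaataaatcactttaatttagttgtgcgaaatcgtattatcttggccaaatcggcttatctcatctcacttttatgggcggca
kis intron: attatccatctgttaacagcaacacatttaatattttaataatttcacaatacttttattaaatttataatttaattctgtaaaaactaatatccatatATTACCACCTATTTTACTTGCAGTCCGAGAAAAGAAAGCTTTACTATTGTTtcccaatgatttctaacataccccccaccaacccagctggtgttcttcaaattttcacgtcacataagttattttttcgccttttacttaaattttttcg
prage: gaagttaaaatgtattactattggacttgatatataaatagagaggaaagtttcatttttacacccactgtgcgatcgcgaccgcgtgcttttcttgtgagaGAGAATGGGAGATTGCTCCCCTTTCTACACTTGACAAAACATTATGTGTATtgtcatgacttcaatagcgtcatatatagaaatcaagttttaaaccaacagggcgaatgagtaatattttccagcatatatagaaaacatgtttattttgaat
CG9663: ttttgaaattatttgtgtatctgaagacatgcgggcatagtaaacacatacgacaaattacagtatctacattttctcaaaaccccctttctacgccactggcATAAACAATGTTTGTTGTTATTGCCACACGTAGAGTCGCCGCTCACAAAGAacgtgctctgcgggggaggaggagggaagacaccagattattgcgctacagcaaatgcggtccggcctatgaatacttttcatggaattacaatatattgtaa
The by window spans chr3R:9533240-9533490, upstream of by, which encodes the fly tensin, and 17.6% of its middle bases were G or C. The spi window at chr2L:19575729-19575978 lay in an intron of spi, the gene of the epidermal growth factor receptor ligand Spitz, with 27.5% in the middle. The frtz window at chr2L:1715903-1716152 lay upstream of frtz, a planar cell polarity gene, with 21.6%. The window at chr2L:247932-248181 lay in an intron of kis, which encodes the trithorax group helicase Kismet, with 33.3% in the middle. The prage window at chrX:1830777-1831032 and the CG9663 window at chr2L:3302142-3302398 were also intronic, with 39.2% and 41.2% in the middle. At kis, prage and CG9663 the middle held more G and C than either summit. CG9663 encodes a predicted ABC transporter.

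The distances between neighbouring summits piled up just above 199 bp. No pair was closer than that, the median was 205 bp, the quartiles were 201 and 220 bp, and the longest was 460 bp. Of the 678 pairs, 504 (74.3%) were spaced 199 to 219 bp, 77 were 220 to 249 bp apart, 56 were 250 to 299 bp, 36 were 300 to 399 bp and 5 were 400 to 500 bp. From 401 to 600 bp there were 29 neighbouring pairs, against 296 from 601 to 800 bp, so few summits lay near the limit of the rule. The smallest spacing was also 199 bp in the relaxed list of each replicate, in the pooled relaxed list and in the dm3 optimal list, and pairs under 220 bp made up 54.0% to 59.3% of the close pairs in the relaxed lists. Whether the peak caller, the DNA fragments of 200 to 800 bp or the chromatin set this distance was not tested.

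**Figure D1:**
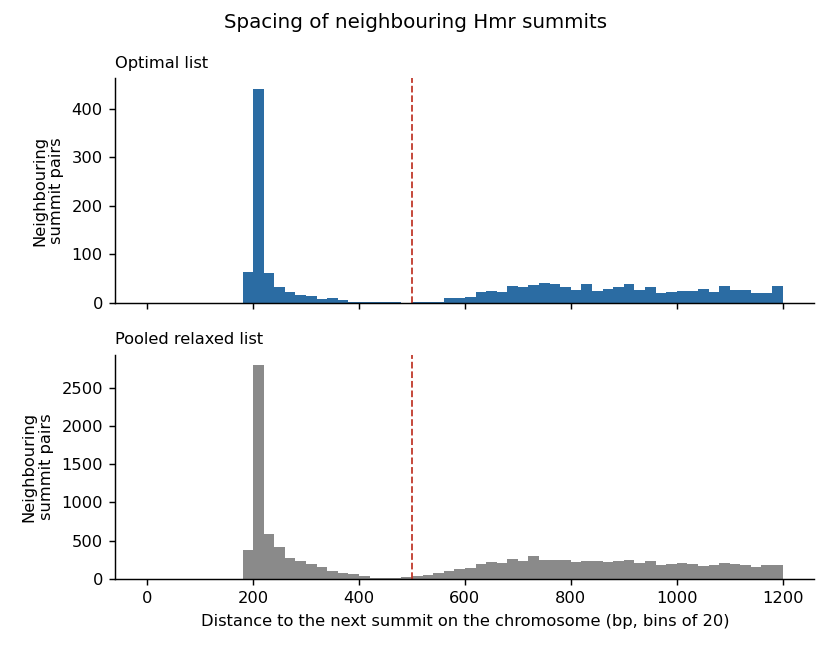
Number of neighbouring summits (vertical axis) by the distance to the next summit in bins of 20 bp (horizontal axis), in the optimal list above and the pooled relaxed list of 30000 entries below, with the 500 bp limit as a dashed line. Both lists start at 199 bp, hold most close pairs under 220 bp and are nearly empty from 400 to 500 bp.

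Just inside the limit lay a pair at Hr4, the gene of a nuclear receptor of the ecdysone response, 460 bp apart with signals of 259 and 184. The next were a pair at bor, 443 bp apart with signals of 386 and 173, and a pair between CG6051 and Men-b, 432 bp apart with 291 and 198. Just outside lay a pair at Amun, 503 bp apart with signals of 222 and 225, and a pair at NTPase, 508 bp apart with 312 and 214. A pair between slv and sut1 was 523 bp apart with 383 and 450. Signals ran from 173 to 386 in the pairs inside and from 214 to 450 in those outside.

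The intervals of paired summits mostly overlapped. In 603 pairs (88.9%, exact 95% interval 86.3% to 91.2%) the 2 peak intervals shared bases, and in 57 pairs (8.41%) both summits lay in 1 and the same interval. The commonest interval width, 456 bp, was held by 53.8% of the members and by 65.5% of the others. Below the cut for the optimal list, 26.0% of the other optimal summits had a further entry of the pooled relaxed list within 500 bp, so a part of them also had near but weaker neighbours. The same held for 4.05% of the members.

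The summits of a pair differed in signal to a varying degree. Signal was taken from the deposited lists, in units that no source used here states. It ran from 155 to 3761 in members, with a median of 306, and from 154 to 6656 in the others, with a median of 270. The stronger summit of a pair had a median signal of 440 and the weaker 219, while the lowest of the whole list was 154. The summits of each pair were sorted by this signal, which itself sets these medians apart. The weaker summit had a median of 0.581 times the signal of the stronger (quartiles 0.39 and 0.768), and 54 pairs (7.96%) had a ratio over 0.9. The ratio was 0.55 in pairs under 220 bp and 0.703 in pairs at 220 bp or more. The strongest decile of the list held 11.2% of the members and 9.77% of the others. Since the weaker summit had to reach the optimal list, the choice of members bounds this ratio from below.

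**Figure D2:**
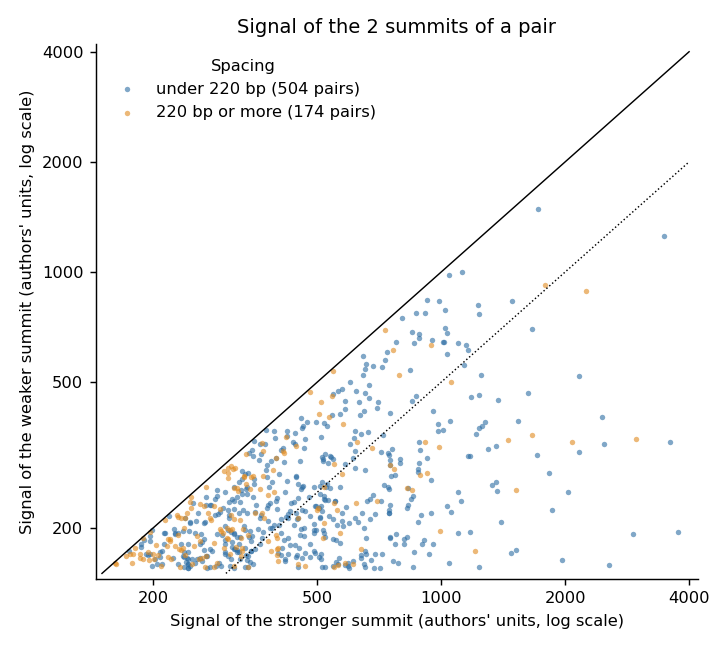
Signal of the weaker summit (vertical axis) against signal of the stronger (horizontal axis), both in the authors' units on log scales, for 678 pairs coloured by spacing, with equality as the solid line and a ratio of 0.5 as the dotted line. Of the pairs, 61.9% lie above the dotted line, and the pairs at 220 bp or more lie nearer to equality.

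The pair with the strongest weaker summit lay upstream of by on 3R. Its summits, at 9533265 and 9533465, had signals of 1717 and 1489 and lay 254 and 454 bp upstream of the start. The first ranked 137, 114 and 182 among the 30000 entries of replicates 1, 2 and 3, and the second ranked 531, 834 and 277. The order of the 2 summits was thus the same in every replicate.

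The CG9663 pair on 2L held the strongest summit of all named groups. Its summits, at 3302167 and 3302373, had signals of 3483 and 1256. The first ranked 22, 15 and 10 in replicates 1, 2 and 3, and the second ranked 503, 206 and 544. Both lay in an intron 757 to 963 bp inside the nearest start. At prage on X the signals were 1121 and 1002, the ranks were 550, 372 and 400 for the first summit and 586, 405 and 503 for the second, and the summits lay 501 and 296 bp upstream of the nearest start. The 2 summits of prage ranked close to each other in every replicate.

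Both summits of spi were found in every replicate. The first, 167 bp upstream of the nearest start, had a signal of 1485 and ranked 307, 172 and 208. The second, 366 bp upstream, had a signal of 832 and ranked 916, 868 and 830. A second group of 2 lay in the same gene, at 19577344 and 19577599, with signals of 304 and 274. Raf, which encodes the kinase downstream of Ras, had a pair on X 795 and 996 bp downstream of a start, with signals of 1230 and 810. The first summit ranked 248, 364 and 394 and the second 1300, 1438 and 824.

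At 2 named pairs a replicate held 1 entry in place of 2. The summits in an intron of Gug, the gene of the corepressor Atrophin, had signals of 1046 and 983 and ranked 512 and 1078 in replicate 2 and 620 and 752 in replicate 3, but both were nearest to the entry of rank 267 in replicate 1. Those of Rgl, which encodes an exchange factor for the GTPase Ral, had signals of 1020 and 785, ranked 333 and 4378 in replicate 1 and 582 and 3759 in replicate 3, and shared the entry of rank 526 in replicate 2. The shared ranks are therefore single entries that were counted for both summits.

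In 2 of these 10 pairs both summits lay within 250 bp of a start. At p38a on 3R, the gene of a stress-activated kinase, the summits lay 50 bp upstream and 65 bp inside the start, with signals of 1784 and 921. The first ranked 182, 91 and 155, and the second 361, 189 and 281. On 2R, the summits between CG6550 and Mtap, the gene of a methylthioadenosine phosphorylase, lay 101 bp upstream of the former and 19 bp inside the latter, with signals of 925 and 841. They ranked 499, 582 and 571, and 680, 662 and 1165. The last of the 10 pairs, with signals of 2249 and 890, lay in an intron of Adf1, the gene of a MADF-domain transcription factor, with the second summit nearest to the start of lncRNA:CR45128.

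The smallest spacing of 199 bp was shared by 64 pairs on 6 chromosomes, and the 3 named here are the first of them in order of position, all on 2L. At spen, which encodes an RNA-binding corepressor, signals of 266 and 206 lay in the 5′ UTR, the ranks were 2362 and 5334 in replicate 1 and 4407 and 7245 in replicate 3, and replicate 2 had no entry within 200 bp. In the kis intron, signals were 563 and 472, and the start nearest to both was that of lncRNA:CR44218. The first summit ranked 1696, 1273 and 1422 and the second 2996, 2064 and 2175. At frtz, signals were 432 and 233, with ranks of 2779, 2379 and 1936 and of 11383, 8195 and 5206. In these 3 pairs the stronger summit ranked higher in every replicate that held an entry for it.

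The only group of 4 lay in an intron of shn on 2R. The gene encodes Schnurri, a zinc-finger protein of the response to the morphogen Dpp. The summits at 11178567, 11178776, 11179203 and 11179404 had signals of 408, 193, 567 and 408, at successive distances of 209, 427 and 201 bp. In replicate 1 they ranked 1663, 5082, 597 and 1123, and in replicate 3 they ranked 2647, 13338, 1776 and 2114. In replicate 2 the last 2 shared the entry of rank 2175, and the others ranked 2394 and 7289. The third summit of the group was thus the strongest in every replicate, alone or shared.

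Across the gene, shn held 6 close groups, more than any other gene. The other 5 were pairs with stronger signals from 399 to 598 and weaker signals from 155 to 335. Each of the 6 groups had an adjacent pair found as 2 entries in only 2 of the 3 replicates. The gene is 58309 bp long, and the number of groups was not scaled by length. Pgk, the gene of the glycolytic enzyme phosphoglycerate kinase, had 3 groups at a length of 6189 bp, with stronger signals of 956, 513 and 1012. Both summits of the last of these were nearest to the start of Bacc, a gene that had 2 groups. A group can count for more than 1 gene. CG42258, PRAS40, sbb and tara also had 3 groups, 59 genes of any type had 2 and 790 had 1.

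Groups of 3 were named by number of summits and summed signal. The strongest lay upstream of lncRNA:CR45643 on 3R, with signals of 626, 344 and 2077 and gaps of 344 and 312 bp. Its last summit ranked 77, 148 and 58, whereas the middle one had an entry within 200 bp only in replicate 2. At MYPT-75D, the gene of a myosin phosphatase subunit, signals of 332, 990 and 833 lay 668, 334 and 134 bp upstream of a start. In the 3′ UTR of lwr, the gene of the SUMO-conjugating enzyme Ubc9, signals were 948, 653 and 156, and in replicates 1 and 3 the last 2 summits shared the entries of rank 729 and 1333.

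In the remaining named groups of 3 the signals also differed within the group. At Mef2 on 2R, the gene of the transcription factor of muscle differentiation, signals of 678, 330 and 198 lay in an intron 4438 to 4957 bp upstream of the nearest start. The first of them ranked 2755, 844 and 540. Upstream of lncRNA:CR44761 signals were 491, 259 and 518. Between lncRNA:CR45618 and prtp, a gene of the engulfment of dying cells, they were 698, 236 and 176. Between Cftr and Esyt2 they were 339, 156 and 550, and the middle summit had no entry within 200 bp in any replicate.

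Closely spaced summits lay nearer to transcription starts than the others. Of the members, 41.5% were promoter summits, within 250 bp of an annotated start (exact 95% interval 38.9% to 44.2%), against 37.9% of the others, 38.5% of all optimal summits and 12.8% of 20064 pooled entries with no optimal summit within 500 bp. The larger contrast was at 251 to 1000 bp from a start, which held 28.6% of members (26.2% to 31.1%) and 17.7% of others (16.8% to 18.6%). Farther than 1000 bp lay 29.8% of members and 44.4% of others. The median distance to a start was 344 bp in members and 676 bp in others. Intervals cover counting error only, summits are not replicates, and no test was made over them.

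A pair was more often beside a start than across it. Both summits were promoter summits in 199 pairs, exactly 1 was in 163 and neither was in 316, and an annotated start lay between the summits in 103 pairs (15.2%). Of the 362 pairs with a promoter summit, 66.9% had both summits upstream of the nearest start, 24.3% had 1 on each side and 8.84% had both downstream. The stronger summit was the nearer one to a start in 50.6% of these pairs, and the weaker lay on the gene-body side of it in 52.5%, so neither order prevailed. Of promoter summits in groups of 2, 83.8% of the stronger (78.9% to 87.9%) and 70.8% of the weaker (64.7% to 76.3%) were upstream of the start. Among promoter summits of protein-coding genes, 43.6% of members and 33.9% of others were at a gene with a divergent neighbour whose start lay within 500 bp.

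Starts were fewer between the summits than directly beside them, but not fewer than farther out. Bins of 50 bp held 22 to 32 starts in the 200 bp between. On the far side of the stronger summit they held 20 to 29 from 200 to 400 bp and 6 to 18 from 400 to 600 bp. On the side of the weaker they held 15 to 29 from 400 to 600 bp. Counted from the stronger summit towards the weaker, 105 annotated starts lay in the 200 bp between, 233 in the 200 bp on the far side of the stronger summit and 168 from 200 to 400 bp, beyond most of the weaker ones. In pairs under 220 bp, a start lay within 50 bp of 6.94% of the midpoints, of 8.33% of the stronger summits and of 12.9% of the weaker. For the other optimal summits this share was 12.3%. Alternative starts of 1 gene were counted separately in the totals, so they are not independent.

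In pairs under 220 bp the midpoint was on average poorer in G and C than both summits, but only slightly below the stronger. In 51 bases centred on each position, mean GC was 34.1% at the stronger summit, 31.9% at the midpoint and 39.1% at the weaker. The SDs over pairs were 11.6, 12.4 and 11.7. In these pairs the mean GC content was 31.8% ± 0.52 (SE, n = 504) in the bases 50 to 100 bp from the stronger summit towards the weaker, against 41.8% in the same bases on the far side. Around the other optimal summits GC was lowest at the summit itself, at 36.6% to 37.0% in the adjoining 50 bp (n = 6797), and 38.9% at 50 to 100 bp. The lowest point of the pairs was thus off the stronger summit and between it and its neighbour. In the 51 bases at the midpoint, 51.6% of the pairs under 220 bp had a GC content below 30%, against 33.4% of the other optimal summits at their own summit. Midpoints were lower than both summits of their pair in 42.5% of these pairs, in 32.5% of the 77 pairs at 220 to 249 bp and in 39.2% of the 97 pairs at 250 bp or more. In the longer pairs the midpoint had a GC content below 30% in 31.2% of pairs at 220 to 249 bp and in 37.1% of pairs at 250 bp or more, beside the same 33.4% of other optimal summits. In pairs at 250 bp or more the mean was 35.6% at the midpoint, 38.2% at the stronger and 36.3% at the weaker summit.

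**Figure D3:**
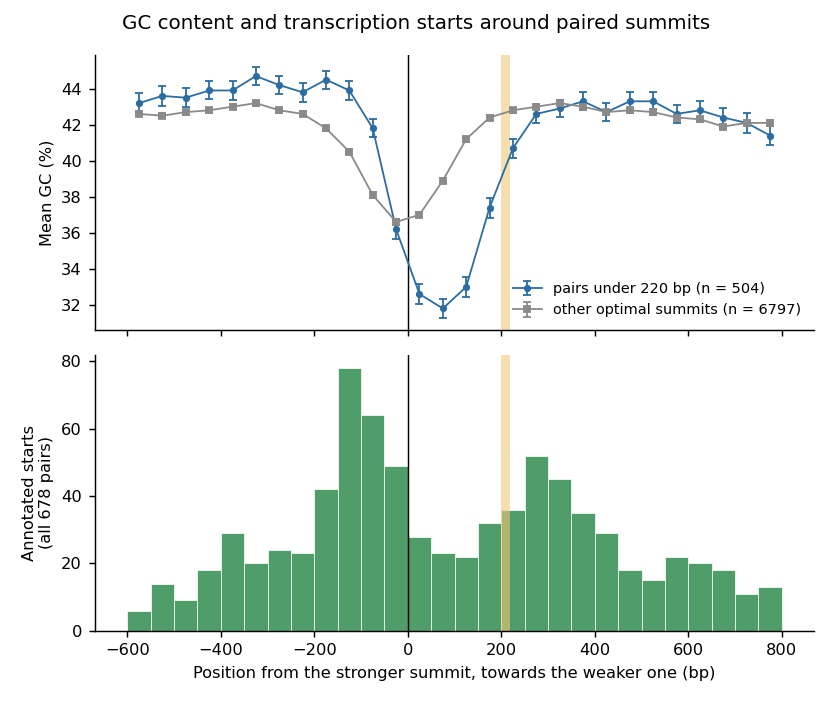
Upper panel, mean GC content in bins of 50 bp with SE over pairs or summits, by position from the stronger summit (0) towards the weaker one, for 504 pairs under 220 bp and for 6797 other optimal summits, which are not oriented. Lower panel, number of annotated starts in the same bins around all 678 pairs. The shaded band marks 199 to 219 bp, GC falls to 31.8% between the paired summits, and starts are most frequent just outside them.

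The named pairs varied in this respect. At by the GC content was 37.3% at the first summit, 17.6% in the middle and 31.4% at the second. At spi it was 45.1%, 27.5% and 52.9%, and at frtz 52.9%, 21.6% and 45.1%. At CG9663, with 33.3% at both summits and 41.2% in the middle, at prage, with 25.5%, 39.2% and 25.5%, and at kis, with 21.6%, 33.3% and 25.5%, the order was the opposite. The capital letters of the printed sequences show the middle stretch in each case. Whether mapping or amplification of AT-rich DNA contributed to the gap between the summits was not tested.

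Consensus sequences were searched on both strands within 100 bp of each summit, and most shares in members and others lay close together. BEAF-32, an insulator protein of divergent promoters, has CGATA as its core, which was found at 29.3% of members, 28.5% of others and 21.8% of background entries. It also lies within the site of DREF, TATCGATA, a factor of housekeeping promoters, found at 2.85%, 3.47% and 0.812%. GGTCACAC, the core of the promoter factor M1BP, was found at 2.85%, 3.49% and 0.653%. At promoter summits alone these shares were lower in members than in others, with 5.6% and 8.42% for DREF and 5.78% and 8.54% for M1BP.

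Repeats of GA and the CTCF core differed more over all summits. GAGAGAG, bound by GAGA factor, was at 6.3% of members, 4.47% of others and 3.88% of background entries. At promoter summits alone it was at 5.96% of members and 5.67% of others, which lie close together. AGNTGGCGC, a core of the insulator protein CTCF, was at 0.9% of members, 2.18% of others and 1.01% of background entries. At promoter summits alone the CTCF core was at 0.903% of members and 2.17% of others. TATAAAA was at 16.4% of members, 14.8% of others and 9.99% of background entries, and at 21.4% of the windows centred between paired summits, where GC content was lowest. The Su(Hw) core TGCATAC was at 2.55% of members and 3.5% of others, CAGCTG at 9.37% and 10.1%, AGATAAG, read by GATA factors, at 3.52% and 3.21%, and CAGGTAG, read by the early embryonic activator Zelda, at 0.975% and 0.75%. A match is a run of letters and does not show that the factor was bound.

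Matches were also counted by pair. CGATA lay within 100 bp of both summits in 73 pairs (10.8%) and of exactly 1 in 246 (36.3%). TATAAAA lay at both in 19 pairs and at exactly 1 in 183. For the remaining 8 sequences both summits had a match in at most 11 pairs, the number for CAGCTG. Windows of neighbours spaced near 200 bp touch but barely overlap, so a single match can hardly count for both.

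Close groups lay at 743 of 13945 protein-coding genes (5.33%), in the gene or within 1000 bp of a start, and at 15.2% of the 4895 genes with any optimal summit there. Cytoplasmic ribosomal protein genes, which encode the subunits of the translating ribosome, had one at 17 of 85 genes, or at 22.1% of the 77 with any summit. The gene lists were chosen with earlier results of these data known, in which these genes already stood out for summits of any kind. No test of a list was made, and no share was scaled by gene length.

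Ribosomal protein genes had a common arrangement, with the strong summit at the start and the weak one upstream. In 15 of 17 groups the strongest summit lay within 250 bp of the start, and in all 17 the strongest of the weaker summits was upstream of the start. Spacing was 200 to 259 bp with a median of 205 bp, and 9 of the 17 genes had a divergent neighbour. Both summits were found as separate entries in all replicates at 12 of them. At RpL10Ab, outside the promoter range, the stronger summit lay 268 bp and the weaker 66 bp upstream.

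RpS27 on 3R led this list. Its summits, at 25247509 and 25247716, had signals of 2463 and 401 and lay 5 bp inside and 202 bp upstream of its start, the latter nearer to the divergent gene Nup37 of a nuclear pore protein. The first ranked 177, 35 and 39 in replicates 1, 2 and 3 and the second 2099, 1664 and 5265. At RpL34b the signals were 1827 and 283, 99 and 313 bp upstream, the second nearer to CG8132. Their ranks were 205, 93 and 115 and 6954, 1608 and 1410. At RpL28 the signals were 1251 and 524, 56 and 257 bp upstream, the second nearer to the translation initiation factor gene eIF1, with ranks of 710, 238 and 227 and of 3661, 1303 and 2303. In all 3 pairs each summit at the ribosomal gene ranked above its partner in every replicate.

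Mitochondrial ribosomal protein genes had close groups at 2 of 73 (2.74%), or at 5.56% of the 36 with a summit. Over all protein-coding genes the shares were 5.33% and 15.2%. At mRpS26 the stronger summit, with a signal of 510, lay 256 bp upstream and nearer to CG13698, and the weaker, with 164, lay 50 bp upstream. At mRpL17 the signals were 336 and 168, with the stronger nearer to Tudor-SN. The stronger summit therefore lay on the side of the neighbouring gene at both.

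Of the 15 ecdysone response genes, 4 had close groups (26.7%), or 30.8% of the 13 with a summit. Over all protein-coding genes these shares were 5.33% and 15.2%. A group anywhere in a gene was counted, and Eip75B of this list is 113744 bp long. E23, which encodes an ecdysone-induced ABC transporter, had summits 234 and 440 bp upstream with signals of 2161 and 521. The first ranked 110, 68 and 77, and the second 722, 2079 and 2200. Hr4 had 3 summits in an intron with signals of 458, 259 and 184. Eip75B and ftz-f1, genes of other nuclear receptors, each had 2 groups, whose strongest signals were 510 at the former and 444 at the latter. At this list size, 1 gene changes the share by several percentage points.

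**Figure D4:**
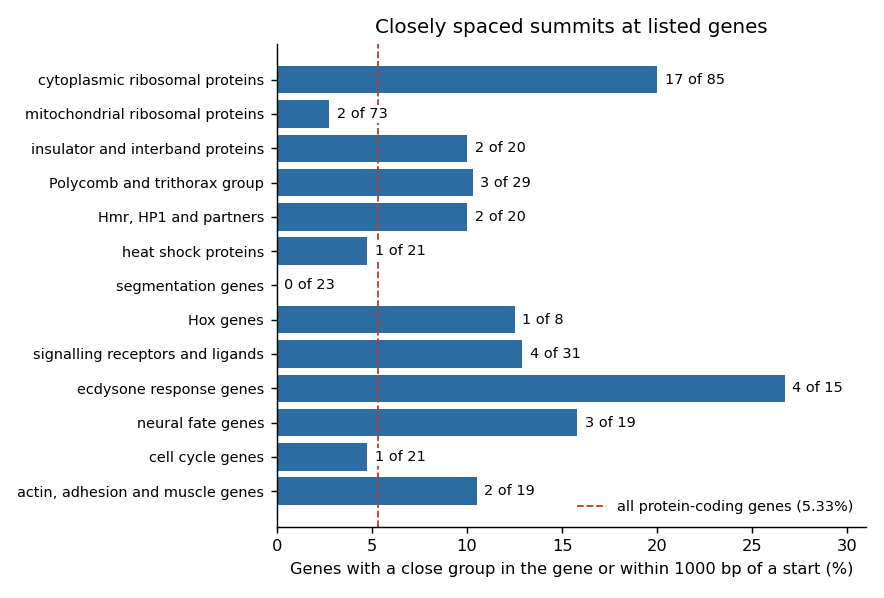
Share of the genes of each list with a close group in the gene or within 1000 bp of a start (horizontal axis, percent), with the number of genes beside each bar and the share of all protein-coding genes, 5.33%, as a dashed line. Cytoplasmic ribosomal protein and ecdysone response genes have the longest bars, and segmentation genes have none. The bars divide by all genes of a list, with or without a summit. Among genes with any summit the highest share was that of neural fate genes, 37.5% of 8 genes, and cytoplasmic ribosomal protein genes had 22.1%.

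Developmental genes were counted in lists. Of 23 segmentation genes, 7 had an optimal summit and none had a close group. Of 19 neural fate genes, 3 had a close group, or 37.5% of the 8 with a summit. Over all protein-coding genes with any summit the share with a close group was 15.2%, and no test between the lists was made. At lola, which encodes a family of zinc-finger proteins, signals were 859 and 640, with ranks of 627, 464 and 995 and of 1010, 4683 and 1914. At numb, the gene of an inhibitor of Notch signalling, they were 1175 and 315, and replicate 2 held 1 entry, of rank 375, for both summits. At ttk, which encodes a repressor of neural fate, they were 174 and 173.

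Signalling genes had close groups at 4 of 31, namely spi, arr, InR and Stat92E. These were 17.4% of the 23 with a summit, near the 15.2% of all protein-coding genes with any summit. At arr, the gene of a Wingless co-receptor, the signals of 537 and 545 were nearly equal, in an intron more than 10 kb inside the gene. Replicate 2 had no entry within 200 bp of the first summit, and the start nearest to both was that of CG43192. At InR, the insulin receptor gene, signals were 353 and 175, and both summits lay in a noncoding exon and nearest to the start of lncRNA:CR44034. Of 8 Hox genes, Antp had a group in an intron with signals of 648 and 418, ranked 1242, 1009 and 1218 and 2612, 2017 and 3569. Both summits were nearest to the start of lncRNA:CR43252. Any summit lay at 4 of the 8 Hox genes.

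Genes of chromatin proteins also had close groups. Of 29 Polycomb and trithorax group genes, kis, trx and Psc did (10.3%). They were 18.8% of the 16 with a summit, beside 15.2% over all protein-coding genes with any summit. At trx, which encodes a histone methyltransferase, signals of 352 and 221 lay 9 bp inside and 191 bp upstream of the start, and in replicate 2 both shared the entry of rank 2829. Psc, a gene of a Polycomb repressive complex, had signals of 236 and 196, and only replicate 3 had entries within 200 bp of both. Of 20 insulator and interband genes, row and Trl, the gene of GAGA factor, had groups, with signals of 851 and 445 and of 746 and 220. They were 22.2% of the 9 with a summit. Of 20 genes of Hmr, HP1 and their partners, HP4 had signals of 713 and 237, and wde, which encodes a cofactor of a histone H3 lysine 9 methyltransferase, had 274 and 231. These 2 genes were 22.2% of the 9 with a summit. The summits counted for wde lay 330 and 543 bp upstream of its start, and the start nearest to both was that of CG12935. At HP4 the weaker summit was nearest to the start of CG8209.

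Housekeeping and muscle genes completed the lists. Hsc70-5, the gene of the mitochondrial Hsp70, was the 1 of 21 heat shock protein genes with a group, and its signals of 1211 and 173 lay 7 bp inside and 248 bp upstream of the start. Cdk4 was the 1 of 21 cell cycle genes (4.76%), or 7.14% of the 14 with a summit, with signals of 495 and 229. Of 19 actin, adhesion and muscle genes, Mef2 had its group of 3 and Act5C had 2 groups, the stronger with signals of 868 and 458 that lay 652 and 445 bp upstream of its start. The first of these ranked 660, 681 and 754, and both were nearest to the start of lncRNA:CR45668. Mef2 and Act5C were 10.5% of their list and 18.2% of its 11 genes with a summit.

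The share of summits with a close neighbour varied among chromosome arms. It was 20.2% on 2R (exact 95% interval 18.3% to 22.3%), 17.1% on 3L, 16.5% on 3R, 14.8% on 2L and 13.3% on X (11.6% to 15.1%). On chromosome 4 it was 2 of 18 summits. The interval of 2R did not overlap those of 3R, 2L and X, and that of 3L did not overlap that of X. Those of the neighbours in this order overlapped. Over all optimal summits the share was 16.4%. Members come in groups of 2 or more, which these intervals ignore, so they are too narrow. The limits lay close, at 18.3% on 2R and 18.2% on 3R, and at 15.3% on 3L and 15.1% on X. No difference between arms was tested.

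The replicate lists held most pairs as 2 entries. A pair was counted as resolved where its summits had different nearest entries, each within 200 bp, in the list of a replicate. Replicate 1 resolved 77.9% of the pairs, replicate 2 resolved 72.7% and replicate 3 resolved 82.3%, a mean of 77.6% ± 4.8 (SD, n = 3). All 3 replicates resolved 328 pairs (48.4%), 2 resolved 255, 1 resolved 85 and none resolved 10. When only the 8131 strongest entries of each replicate were searched, all 3 replicates resolved 20.6%. The resolved pairs were spaced by a median of 205, 205 and 206 bp in replicates 1, 2 and 3. The pairs were chosen by their spacing in the pool of these replicates, and every list had a smallest spacing of 199 bp. Much of this likeness in spacing is therefore built in. Pairs whose weaker summit was at or above the median of weaker signals were resolved in all replicates in 57.2% of cases, against 39.5% of those below it.

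The order of strength within a pair was stable among replicates. Where a pair was resolved, the summit that was stronger in the pool was also stronger in 95.3%, 95.3% and 95.7% of cases in replicates 1, 2 and 3. Of the 328 pairs resolved in all replicates, 295 (89.9%) had the same stronger summit in each. This held for 94.7% of pairs with a signal ratio at or under 0.8 and for 60.9% of those above. The pool was made from the same replicates, so a part of this match is built in.

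Where a replicate did not resolve a pair under 220 bp but had exactly 1 entry within 200 bp of it, the position of that entry was measured along the pair. Scaled from 0 at the stronger to 1 at the weaker summit, the median position was 0.52 in replicate 1 (76 pairs), 0.35 in replicate 2 (133 pairs) and 0.51 in replicate 3 (73 pairs). Between positions 0.25 and 0.75 lay 44.7%, 32.3% and 39.7% of these entries. The others lay nearer to 1 of the summits or outside the pair.

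Whether the summits of close groups recurred more often than the others turned on the match distance. Among the 8131 strongest entries of each replicate and within 200 bp, members were matched in 87.6%, 86.1% and 86.5% of cases and others in 79.1%, 80.2% and 83.9%. The difference was 5.66 ± 2.97 percentage points (SD, n = 3), positive in 3 of 3 replicates, with p = 0.25 in an exact two-sided sign-flip permutation test, the smallest p that 3 replicates allow. Within 100 bp, members were matched in 73.4%, 72.7% and 75.6% and others in 76.3%, 77.7% and 82.0%. The difference was then -4.76 ± 1.78 points, negative in 3 of 3 replicates, with the same exact p of 0.25. At 200 bp, about the usual spacing, the entry of a neighbour can match a summit that has none of its own. The optimal list was drawn from the pool of these same replicates. A part of every match is therefore built in, for members and others alike, and the shares do not measure independent recurrence.

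Recurrence in all 3 replicates showed the same turn. Within 200 bp, 67.4% of members, 58.2% of others and 59.7% of all optimal summits were matched in every replicate. Within 100 bp it was 46.2% of members and 54.2% of others. In groups of 2, the stronger summits were matched in all replicates at 81.4% within 200 bp and 64.6% within 100 bp, and the weaker at 54.5% and 28.0%. Of members in pairs at 220 bp or more, 49.6% were matched in all replicates within 200 bp, fewer than of the others.

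**Figure D5:**
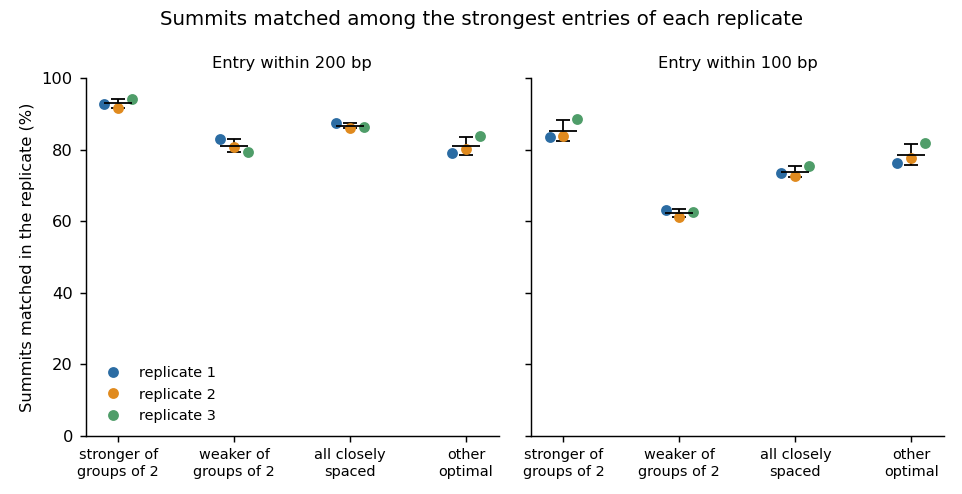
Share of summits matched among the 8131 strongest entries of each replicate (vertical axis, percent), within 200 bp on the left and within 100 bp on the right, for the stronger and weaker summits of groups of 2, all closely spaced summits and the other optimal summits. Points are replicates, and black lines are the mean and SD of 3. Closely spaced summits lie above the others at 200 bp and below them at 100 bp.

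The ranks of matched members were compared with those of matched others. The members' median percentile in the whole replicate list was 89.3, 89.5 and 87.1 in replicates 1, 2 and 3, against 86.0, 85.5 and 85.2 for the others. The difference was 3.07 ± 1.07 percentile points (SD, n = 3), positive in 3 of 3 replicates, with p = 0.25 in the exact two-sided sign-flip permutation test, again the smallest p possible. It was 2.57 ± 0.89 with matches within 100 bp. For members in pairs at 220 bp or more it was 0.27 ± 0.96, positive in 2 of 3 replicates, with an exact permutation p of 0.75. In groups of 2 the stronger summits had median percentiles of 93.5, 93.7 and 92.3 and the weaker 82.5, 84.1 and 80.6, an order that the split by pooled signal itself favours. Members also had the higher median signal in the pool, 306 against 270 in others. Since the pool was made from these replicates, their percentiles are not independent of that difference.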

How the data were processed

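Per the files deposited with the samples, the authors called a relaxed peak list for each of 3 replicates and for the pooled replicates against a control, and kept an optimal list by the irreproducible discovery rate (IDR). For the IDR threshold, the aligner and the caller, no value or name is given in the labels or headers. The deposited column 7 is the authors' signal per peak, of unstated scale, and was compared only within a list. Summits came from the deposited column 10. Depth is unknown, and each relaxed list held 30000 entries.

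Summits of the dm6 optimal list within 500 bp of each other were linked into groups. The stronger and weaker summits of a pair are those of higher and lower signal. Annotation was Ensembl on Release 6, the assembly of dm6, without transposable elements, and sequence came from RefSeq. Genes with a divergent neighbour were protein-coding, with the start of another such gene at most 500 bp upstream on the opposite strand. Background entries were the 20064 pooled relaxed entries with no optimal summit within 500 bp.

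Named are the genes nearest to the 8 groups with most summits, to the 10 groups of 2 with the strongest weaker summit and to the 3 closest pairs, and up to 3 genes per list with the highest summed signal. RpL10Ab, Stat92E, ftz-f1 and the genes with 3 or more groups were named after their values were seen, as were the 6 printed sequences. They are those resolved in all replicates among 8 windows of the first 3 kinds of groups, off arm 2R, outside UTRs and within 300 bases. Members, gene lists and consensus sequences were chosen with earlier results of these data known. Of the listed symbols, 7 were found through synonyms and 3 matched no gene name.

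Intervals are exact Clopper-Pearson 95% intervals and cover counting error only. They treat summits and pairs as independent, though members come in linked groups. Replicates were compared by sign-flip permutation, and no test was made over summits or genes. Pairs of equal spacing were taken in order of position. Python 3.11.15, NumPy 2.4.6, pandas 2.3.3, SciPy 1.17.1 and Matplotlib 3.10.9 were used, and the grouping, matching and sequence search were tested on simulated data.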

Additional observations from a re-analysis of the deposited data

How the results depend on the processing

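The number of closely spaced summits kept within 1.5 times of 1334 with neighbours within 250 bp, in the dm3 list and for overlapping intervals. It was 2379 within 1000 bp, 408 among summits of at least median signal, 796 to 830 when only summits matched in both replicates other than the one left out were kept, and 335 in pairs at 220 bp or more, an alternative added after the pile-up of spacings was seen. The promoter share of 41.5% rose to 59.3% with starts within 500 bp, and was 39.4% to 41.6% in the other settings. The share matched in all replicates, 67.4%, was 46.2% within 100 bp, 88.1% in whole replicate lists, 49.6% in pairs at 220 bp or more and 75.3% to 77.0% without 1 replicate. The share of pairs resolved in all replicates, 48.4%, was 20.6% among the strongest entries of each replicate, and 56.3% to 64.5% without 1 replicate, where fewer lists have to resolve a pair. The percentile difference stayed positive, at 2.62 to 3.66 without 1 replicate, 2.57 within 100 bp, 1.02 for promoter summits and 0.27 in pairs at 220 bp or more. With consensus windows of 50 bp to each side, which hold fewer bases, the share of members fell to 1.87% for the DREF site, 1.35% for M1BP, 17.7% for BEAF-32, 2.92% for GAGAGAG, 0.375% for CAGGTAG, 0.525% for the CTCF core, 1.65% for TGCATAC, 4.87% for CAGCTG, 1.35% for AGATAAG and 8.55% for TATAAAA. Causes other than these constructions were not tested.

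Peak lists without read counts limit what can be said: no value has a depth, a weak summit that missed the optimal list counts as absent, and the smallest distance at which 2 summits are listed is 199 bp. The smallest p that 3 replicates allow is 0.25.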
